A study of Mus musculus with 9 samples.

Results

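The AP-1 transcription factors described here are 9 genes, Fos, Fosb, Fosl1, Fosl2, Jun, Junb, Jund, Atf3 and Batf3, taken by symbol from a table of 24062 gene symbols. All 9 were found in the table, and 8 passed the filter on low counts that left 14223 genes for testing. Batf3 did not pass it. The cells were mouse embryonic fibroblasts (MEFs), connective tissue cells grown from embryos, of the C57BL/6 strain. The control group received an empty lentivirus, the p21 group a lentivirus for p21 (the product of Cdkn1a) and the p16 group a lentivirus for p16 (a product of Cdkn2a), both inhibitors of cyclin-dependent kinases. Each group held 3 RNA-seq libraries made on day 4 after delivery. All 9 libraries carried a lentivirus, and the labels call the cells of every group non-senescent. The labels give neither the age of the embryos nor whether the replicates of a group came from separate cultures or animals. The p-values therefore measure the spread between these samples, which for replicates 1 and 2 may be technical. Replicate 3 of every group held 8889 to 11745 counts of Xist, a transcript of female cells, against at most 413 elsewhere. The spread within each group thus includes a difference in this marker of sex, whose source was not tested.

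AP-1 is a dimer of basic leucine zipper (bZIP) proteins that binds short DNA elements in promoters and enhancers. FOS proteins cannot pair stably with each other and need a JUN partner, whereas JUN proteins can also pair among themselves or with ATF proteins. In fibroblasts, serum, growth factors and stress raise Fos, Fosb, Jun, Junb and Atf3 within minutes as immediate early genes, while Fosl1 and Fosl2 follow later and Jund is more steadily expressed. Much of the activity of AP-1 is set by phosphorylation and protein turnover, which RNA counts do not measure.

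Several of these genes carry AP-1 or CREB/ATF elements in their own promoters, so the stretch of 150 bases before the transcription start is shown for 4 of them, a prototype FOS gene, 2 JUN genes and Atf3. The sequences are from RefSeq (GRCm38.p6), which gave a window of 250 bases before to 50 after the start for 8 of the 9 genes, all but Fosl1. Each is written in the direction of transcription. Capitals mark TGACG, the core of the cAMP response element, in Fos and Junb, and also TATAA, the core of a TATA box, in Fos. In Jun they mark the octamer TGACATCA and in Atf3 the octamer TTACGTCA, both variants of AP-1 and ATF elements. Fos lies at chr12:85473740-85473889 on the plus strand, Jun at chr4:95052223-95052372, Junb at chr8:84978749-84978898 and Atf3 at chr1:191183334-191183483, all 3 on the minus strand. The Atf3 start is that of a shorter transcript inside the gene, and 7 of its printed bases fall in an annotated exon.
Fos: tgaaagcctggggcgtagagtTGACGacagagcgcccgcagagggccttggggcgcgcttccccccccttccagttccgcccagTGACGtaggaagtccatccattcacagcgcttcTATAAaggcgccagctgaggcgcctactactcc
Jun: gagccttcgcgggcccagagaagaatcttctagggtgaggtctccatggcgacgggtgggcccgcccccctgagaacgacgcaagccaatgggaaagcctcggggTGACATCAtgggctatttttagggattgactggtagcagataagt
Junb: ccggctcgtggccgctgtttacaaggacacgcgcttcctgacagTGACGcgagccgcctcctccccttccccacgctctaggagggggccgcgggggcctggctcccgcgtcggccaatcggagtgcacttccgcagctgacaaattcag
Atf3: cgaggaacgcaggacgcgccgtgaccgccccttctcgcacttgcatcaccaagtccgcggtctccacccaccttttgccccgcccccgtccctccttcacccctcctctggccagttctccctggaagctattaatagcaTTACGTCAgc

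In the Fos promoter TGACG begins 129 and 66 bases before the start and TATAA 33 bases before it. The Jun octamer begins 45 bases before the start, and the Atf3 octamer 10 bases before it, where it overlaps a TGACG on the opposite strand. These motifs were searched on both strands of 32851 RefSeq windows of 300 bases. Of these, 20.8% held TGACG, 24.9% TATAA, 3.62% TGACATCA and 0.499% TTACGTCA. The consensus AP-1 element TGACTCA was in 5.20% of windows and the full cAMP response element TGACGTCA in 1.79%, and neither was found in the windows of the 8 genes. Not all of these windows sit at the annotated start of the gene. The Jund window (chr8:70697489-70697788) ends before that gene's annotated start at 70698949. Of the 150 bases before the start, 150 for Fosl2 and 89 for Batf3 fall in annotated exons. A match describes the letters and is not evidence of binding, and its absence says only that these letters are not in the window.

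AP-1 transcripts in these fibroblasts were mainly those of the JUN genes and Fosl2. Levels between genes were compared as CPM (a library's counts scaled to a common total) per kilobase of exon, averaged over the 9 libraries. Jun, which encodes c-Jun, was the most abundant member at 55.1 CPM per kilobase, above 94.5% of the 13584 tested genes with a length. Junb followed at 50.0, Jund at 43.6 and Fosl2, which encodes Fra-2, at 27.7. The next member, Fosl1, which encodes Fra-1, was at 6.47 CPM per kilobase, Fos at 3.45 and Atf3 at 2.80, near the middle of the tested genes (percentiles 60.7, 46.4 and 42.1). Fosb was at 0.762 CPM per kilobase and Batf3 at 0.0640, percentiles 23.4 and 3.88. Exon lengths merge all annotated transcripts of a gene, which for Fosb (6243 bases) lowers its value per kilobase. Of the exon bases of Fosl1 and Jund, 57.2% and 52.6% overlap a gene on the opposite strand. How reads there were counted is not known, so the levels and shares of these genes are less certain.

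**Figure D1:**
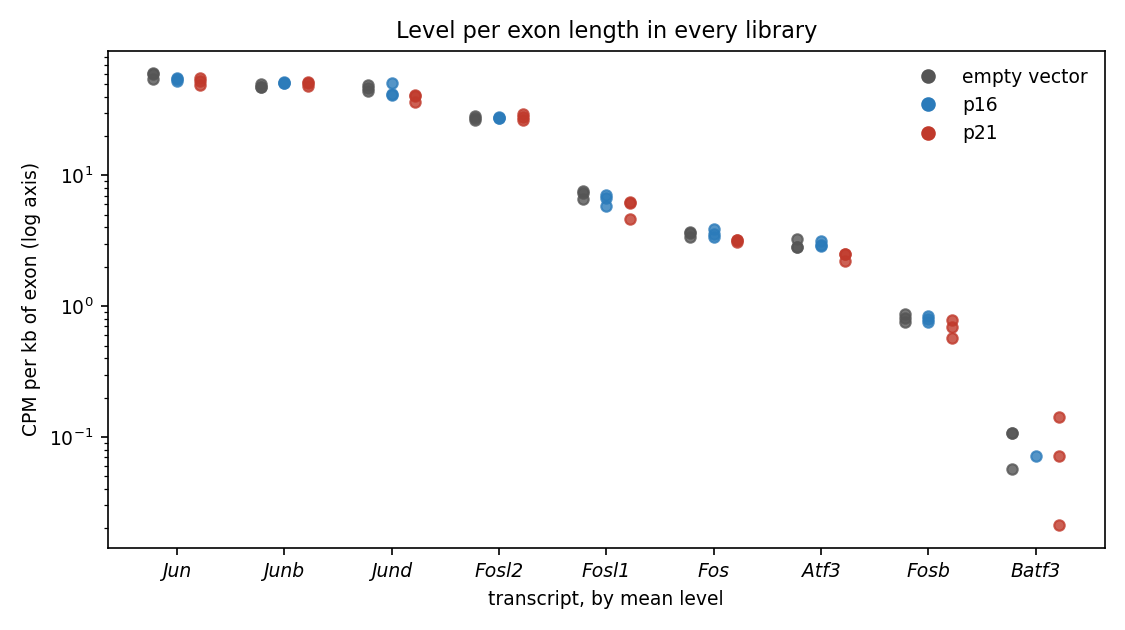
Level of each AP-1 member in CPM per kilobase of exon on a log axis, 1 point per library (9 libraries, coloured by group). The 3 JUN genes and Fosl2 sit at the top of the order, and 2 p16 libraries with 0 Batf3 counts are not drawn.

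The order of the levels was the same in the 3 groups apart from neighbours whose libraries overlapped. Junb and Jund overlapped in the control group (47.1 to 50.4 against 44.3 to 49.0 CPM per kilobase) and in the p16 group (50.6 to 51.8 against 41.3 to 50.6). Jun and Junb overlapped in the p21 group, at 49.2 to 56.0 against 48.2 to 51.6 CPM per kilobase. Every other pair of neighbours in the order was separated in every group.

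As a share of the summed CPM per kilobase of the 9 members, the JUN genes took 78.5% ± 0.36 in the control group, 78.1% ± 0.92 with p21 and 78.3% ± 0.98 with p16 (SD, n = 3 libraries). Junb took 24.7% of the sum in controls, 27.6% with p21 and 26.7% with p16, while Jund took 23.9%, 21.6% and 23.2% and Jun 29.9%, 28.9% and 28.3%. The sum itself was 195 ± 5.0 CPM per kilobase in controls, 183 ± 6.5 with p21 and 192 ± 3.2 with p16. The libraries of the p21 group (176 to 189) lay below those of the control group (192 to 201). These shares are a description of the transcripts and say nothing of the proteins or their dimers.

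With p21, 4 of the 8 tested members fell against the empty vector: Jun and Jund of the JUN genes, Fosl1 of the FOS genes, and Atf3. The falls were small, from 0.15 on the log2 scale for Jun (9.58%) to 0.34 for Fosl1. Fos and Fosb had lower values that did not pass the test, Fosl2 and Junb had values near those of the controls, and no member rose. The test was edgeR's quasi-likelihood F test on counts, with p-values adjusted by Benjamini-Hochberg over all 14223 genes and a threshold of 0.05. By that test 39.9% of all genes changed with p21, 19.8% higher and 20.1% lower. The median log2 fold change of the 8 members was -0.20, against 0.0011 over all genes tested, but the median size regardless of sign was 0.20 for the members and 0.19 for all genes.

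**Figure D2:**
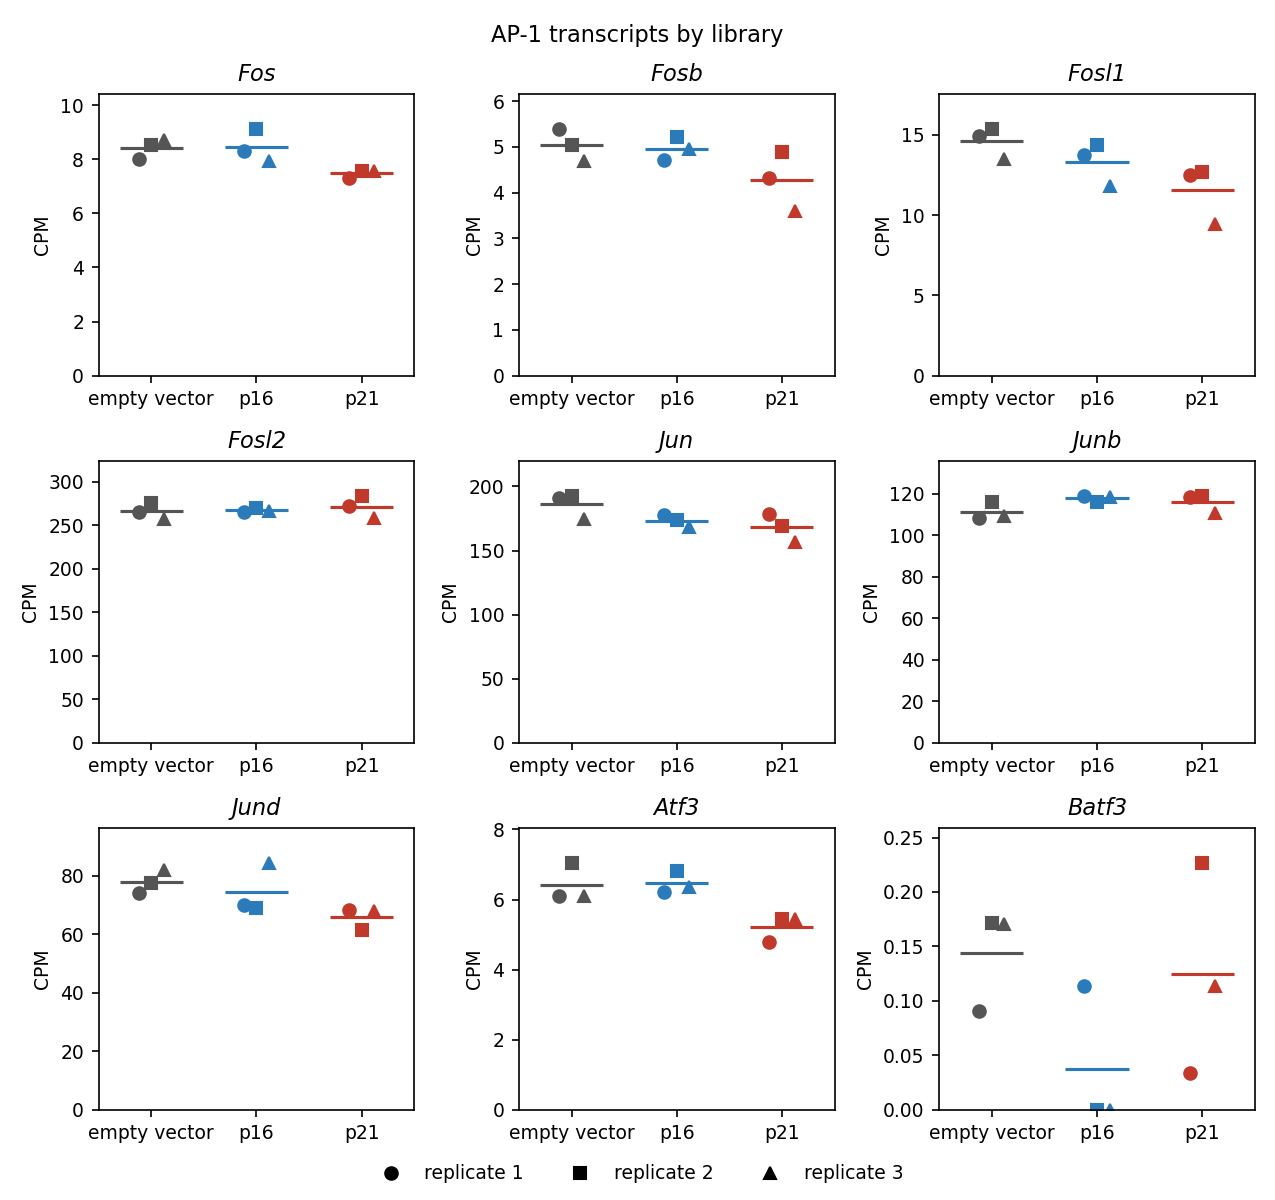
CPM of each AP-1 member in each library, in 1 panel per gene with an axis from 0, for the empty vector, p16 and p21 groups; marker shape gives the replicate number and the bar the group mean of 3 libraries. The p21 libraries lie below all control libraries for Fos, Fosl1, Jund and Atf3, and overlap them for Jun, Fosb, Fosl2 and Junb.

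Jun (chromosome 4, 95049034 to 95052222, minus strand) is a gene of a single exon whose product is the main target of the JNK kinases. Its levels were 191, 193 and 175 CPM in control replicates 1, 2 and 3 and 179, 169 and 157 CPM in the p21 libraries. The groups overlapped, because the third control library was below the first p21 library, but the p21 library was the lower within each replicate number. The log2 fold change was -0.15 ± 0.050 (SE; 95% interval -0.25 to -0.04; adjusted p = 0.0357, edgeR). In this fit that call was lost without control replicate 1 (adjusted p = 0.122), control replicate 2 (0.141), p21 replicate 2 (0.0660) or p21 replicate 3 (0.114).

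Jund (chromosome 8, 70698949 to 70700616, plus strand), also of a single exon, encodes the JUN protein that is bound by menin and is most often linked to slow growth in fibroblasts. Its levels were 73.9, 77.5 and 81.8 CPM in controls and 68.3, 61.4 and 68.0 CPM with p21. All p21 libraries lay below all control libraries, and the second p21 library was the lowest. The log2 fold change was -0.24 ± 0.075 (95% interval -0.40 to -0.08; adjusted p = 0.0232, edgeR), a fall of 15.2%. The call was lost without control replicate 2 (adjusted p = 0.0542), control replicate 3 (0.0731) or p21 replicate 2 (0.0858). Of Jund's exon bases, 52.6% overlap the predicted gene Gm11175, which has no line in the table.

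Junb (chromosome 8, 84974484 to 84978718, minus strand), an immediate early gene whose product can oppose c-Jun at some promoters, did not pass the test. It was at 108, 116 and 109 CPM in controls and 118, 119 and 111 CPM with p21. The groups overlapped, and the log2 fold change was 0.06 ± 0.040 (95% interval -0.03 to 0.15; adjusted p = 0.267, edgeR). The interval allows a fall of no more than 0.03 on the log2 scale. Whether its fold change differs from those of Jun and Jund was not tested. Of Junb's exon bases, 7.52% are shared with Prdx2 on the opposite strand, and the library kit keeps no strand. Prdx2 rose from 265 ± 6.02 to 317 ± 16.2 CPM with p21 (log2 fold change 0.26 ± 0.038, adjusted p = 1.8e-04, edgeR). Its part in the Junb counts was not tested.

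Fosl1 (chromosome 19, 5447547 to 5455946, plus strand) encodes Fra-1, a FOS protein that lacks the strong activation domain of c-Fos and is induced late after serum. It was at 14.9, 15.4 and 13.5 CPM in controls and 12.5, 12.7 and 9.48 CPM with p21. All p21 libraries were below all control libraries, and the third p21 library was well below the other p21 libraries. The log2 fold change was -0.34 ± 0.11 (95% interval -0.58 to -0.10; adjusted p = 0.0281, edgeR). Without p21 replicate 3 it was -0.22 and did not pass (adjusted p = 0.0866), nor did it pass without control replicate 1 (0.0806) or control replicate 2 (0.0987). Of Fosl1's exon bases, 57.2% are shared with Ccdc85b on the opposite strand, and the library kit keeps no strand, so reads there cannot be told apart. Ccdc85b itself rose, from 29.4 ± 0.49 to 33.9 ± 2.63 CPM (log2 fold change 0.21 ± 0.057, adjusted p = 0.0118, edgeR). Its part in the Fosl1 counts was not tested.

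Fos (chromosome 12, 85473890 to 85477273, plus strand), the prototype immediate early gene, was at 8.01, 8.52 and 8.71 CPM in controls and 7.29, 7.58 and 7.58 CPM with p21. The p21 libraries were lower without overlap, yet the log2 fold change of -0.17 ± 0.082 (95% interval -0.35 to 0.01) did not pass the test (adjusted p = 0.120, edgeR). Among the 14 alternatives run, scaling to total counts with no TMM factor was the one under which it passed (adjusted p = 0.0488, edgeR). Fosb (chromosome 7, 19302696 to 19310051, minus strand), whose product is best known from long-lasting induction in neurons, was at 5.40, 5.04 and 4.70 CPM in controls and 4.33, 4.90 and 3.59 CPM with p21. Its groups overlapped, and its log2 fold change was -0.24 ± 0.12 (95% interval -0.51 to 0.02; adjusted p = 0.135, edgeR). Without p21 replicate 2 alone Fosb passed, at adjusted p = 0.0472.

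Fosl2 (chromosome 5, 32135801 to 32157842, plus strand), the FOS gene with by far the highest level here, was at 266, 275 and 257 CPM in controls and 272, 284 and 258 CPM with p21. The groups overlapped. The log2 fold change was 0.03 ± 0.038, and its 95% interval of -0.06 to 0.11 excludes a fall of the size seen for Fosl1 (adjusted p = 0.603, edgeR).

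Atf3 (chromosome 1, 191170296 to 191218039, minus strand) encodes a stress-induced bZIP protein that represses as a homodimer and can pair with JUN proteins. It was at 6.10, 7.05 and 6.09 CPM in controls and 4.80, 5.44 and 5.43 CPM with p21. All p21 libraries lay below all control libraries. The log2 fold change was -0.30 ± 0.10 (95% interval -0.52 to -0.08; adjusted p = 0.0312, edgeR), a fall of 18.7%. The call was lost without control replicate 2 (adjusted p = 0.135) or p21 replicate 1 (0.118).

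Batf3 (chromosome 1, 191097847 to 191108945, plus strand), a small bZIP protein that pairs with JUN proteins and is known from dendritic cells, was barely detected. It had 5, 10 and 8 counts in the control libraries, 2, 10 and 6 with p21 and 6, 0 and 0 with p16. At these counts no difference was detectable, and with no filter its adjusted p was 0.881 with p21, 0.329 with p16 and 0.424 for p21 against p16 (edgeR).

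In the fit by group alone, the 4 calls with p21 depended on single libraries. Leaving out control replicate 2 left 0 of the 8 members past the threshold, and fitting the p21 and control libraries alone left 2, Fosl1 and Jund. Within pairs of the same replicate number, 6 members (Fos, Fosb, Fosl1, Jun, Jund and Atf3) were lower with p21 in 3 of 3 pairs, as were 32.7% of all genes. Fosl2 and Junb were higher in 3 of 3, by at most 0.04 and 0.13 on the log2 scale. For Fosl1 the paired log2 differences were -0.26, -0.28 and -0.51, for Jund -0.12, -0.34 and -0.27, for Jun -0.09, -0.19 and -0.16, and for Atf3 -0.34, -0.37 and -0.16. With the replicate number as a block in the fit, the same 4 members were called, at adjusted p = 2.8e-04 for Fosl1, 0.0010 for Jun, 2.1e-04 for Jund and 0.0137 for Atf3 (edgeR). The block called 24.2% of all genes lower with p21, and leaving out a library was not tried with it. Groups that did not overlap, with p21 lower, were seen for 4 members (Fos, Fosl1, Jund and Atf3) and for 25.0% of all genes tested.

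With p16, none of the 8 members passed the test against the empty vector. The control libraries are the same as in the p21 comparison, so both sets of fold changes share their error. Jun was at 177, 173 and 168 CPM in the p16 libraries, with a log2 fold change of -0.10 ± 0.050 (95% interval -0.21 to 0.004; adjusted p = 0.208, edgeR). Fosl1 was at 13.8, 14.4 and 11.8 CPM (log2 fold change -0.13 ± 0.11, adjusted p = 0.494, edgeR) and Jund at 70.0, 68.8 and 84.4 CPM (-0.06 ± 0.075, adjusted p = 0.648). The third p16 library of Jund was the highest of all 9 libraries and the other p16 libraries were below every control, so the p16 group spanned the control group.

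Atf3 with p16 was at 6.22, 6.82 and 6.36 CPM, within the control range, with a log2 fold change of 0.01 and a 95% interval of -0.20 to 0.23. Fos was at 8.31, 9.13 and 7.95 CPM and Fosb at 4.71, 5.22 and 4.95 CPM, both overlapping the controls, with log2 fold changes of 0.01 and -0.03. Fosl2 was at 265, 270 and 266 CPM, again within the control range. Junb was at 119, 116 and 118 CPM, above every control library by a small margin. Its log2 fold change was 0.08 ± 0.040 and its adjusted p 0.213 (edgeR), and 16.1% of all genes likewise had p16 libraries all above the controls.

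With p16, 11.4% of all genes changed, 5.80% higher and 5.56% lower. Besides the 0 calls in edgeR, 0 members were under 0.05 before adjustment, and limma-voom and DESeq2 also called 0. The members' median log2 fold change was -0.01, against 0.0017 over all genes. With the replicate block 1 member passed, Jun, at adjusted p = 0.0296 (edgeR), where 10.1% of all genes were called lower. Jun and Fosl1 were lower with p16 in 3 of 3 pairs, as were 27.5% of all genes.

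**Figure D3:**
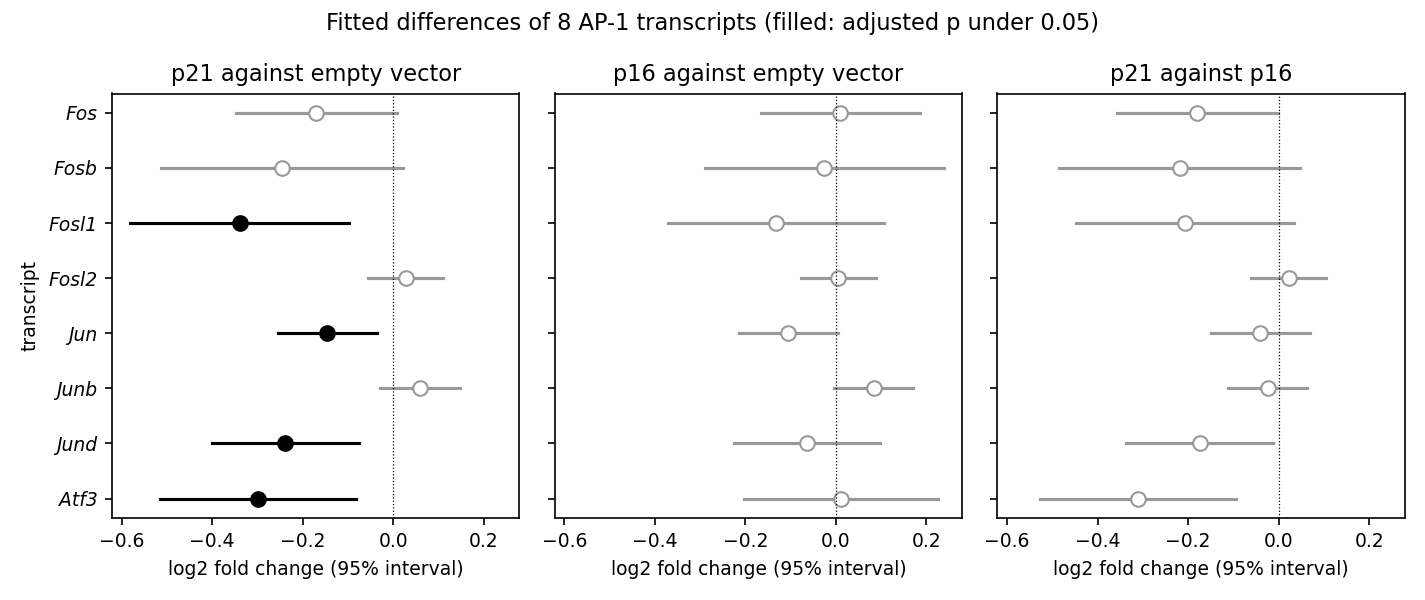
Log2 fold change of the 8 tested AP-1 members with 95% intervals for p21 and for p16 against the empty vector and for p21 against p16, in 3 panels; filled points passed the test (edgeR, adjusted p under 0.05). With p21, Fosl1, Jun, Jund and Atf3 lie below 0 at -0.34, -0.15, -0.24 and -0.30, and no point is filled in the other panels.

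Set against each other directly, the p21 and p16 libraries gave 0 members past the threshold, where 13.1% of all genes passed, 6.91% with p21 lower. Before adjustment 3 members (Fos, Jund and Atf3) were under 0.05, and limma-voom and DESeq2 called 0. Atf3 came nearest, at 4.80 to 5.44 CPM with p21 against 6.22 to 6.82 CPM with p16 (log2 fold change -0.31 ± 0.10, 95% interval -0.53 to -0.09, adjusted p = 0.0602, edgeR). For Jund the log2 fold change was -0.17 ± 0.075 (adjusted p = 0.151, edgeR), for Fosl1 -0.21 ± 0.11 (0.258) and for Fos -0.18 ± 0.082 (0.176). The p21 libraries were all below the p16 libraries for 3 members, Fos, Jund and Atf3, as they were for 16.3% of all genes tested. The falls called with p21 and not with p16 are therefore not shown to differ between the inhibitors in this fit. With the replicate block, 3 members passed with p21 lower: Atf3 (adjusted p = 0.0221), Jund (0.0112) and Fosl1 (0.0343, edgeR). The block called 11.6% of all genes lower in this comparison. Scaling by library totals alone called Atf3 (adjusted p = 0.0489, edgeR).

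The delivered genes matched the labels. Cdkn1a was at 1429 to 1773 CPM in the p21 libraries and 350 to 375 CPM in controls, and Cdkn2a at 1576 to 1927 CPM in the p16 libraries and 34.7 to 42.2 CPM in controls. Library totals were 44455730 to 63152239 counts. The replicate 3 libraries of all groups held 181 to 251 CPM of Xist, which silences an X chromosome in female cells, against at most 6.96 CPM elsewhere. Jun and Fosl1 were lowest in replicate 3 of every group. With replicates 1 and 2 alone the same 4 members were called with p21, at log2 fold changes of -0.27 for Fosl1, -0.14 for Jun, -0.22 for Jund and -0.37 for Atf3. The spread in that fit is the one between replicates 1 and 2, which may be technical. Fibroblast markers (10 genes) summed to 37870 to 42700 CPM in controls, 46867 to 48021 with p21 and 44274 to 47591 with p16, most of it from Col1a1, Fn1 and Col1a2. With p21, 5 of the 10 rose and 2 fell, beside 19.8% and 20.1% of all genes. The 2 that fell were Pdgfra, by 0.99, and Col3a1, by 0.32 on the log2 scale.

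Summed markers of other cell types lay higher with p21, without overlap for all but the epithelial list. The 17 macrophage and leukocyte markers in the table summed to 26.8 to 41.9 CPM in controls, 44.6 to 60.8 with p21 and 34.5 to 61.3 with p16. With p21, 6 of the 13 tested rose and 0 fell, beside 19.8% and 20.1% of all genes. With p16 0 passed, beside 5.80% of all genes higher and 5.56% lower, at a median log2 fold change of 0.53. With the replicate block 10 rose with p21 and 5 with p16, and 0 fell in either. Cd3e and S100a9 were at 0 in all libraries. The skeletal muscle markers summed to 217 to 225 CPM in controls, 586 to 673 with p21 and 326 to 345 with p16, nearly all from Acta1 and Des. These were the 2 tested genes, and both rose with p21 and with p16. The other muscle markers had at most 16 counts in any library, with Ckm at 0 throughout. Epithelial markers summed to 59.0 to 76.2 CPM in controls and 69.2 to 84.9 with p21, and endothelial markers to 5.25 to 6.04 and 7.61 to 9.72. Most of the epithelial sum was Krt19 and Krt18, at means of 57.8 and 12.7 CPM. Epcam, Cdh1, Krt5 and Krt14 had at most 7 counts in any library. The part of these marker lists in the AP-1 results was not tested. In bulk RNA, more cells of a type and more RNA per cell cannot be told apart.

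Some members had similar patterns across the 9 libraries. Fosl1 and Jun had a Pearson r of 0.892 (log2 CPM), which was 0.848 after the group means were removed. Fosb and Fosl1 had 0.864 and 0.783, and Fos and Atf3 0.855 and 0.522. After the group means were removed the highest r was that of Fosb and Fosl2, at 0.859, against 0.421 before. Fosl1 and Fosl2 had 0.808 after removal and 0.350 before. Fosl1 and Jund went opposite ways within groups, with r = -0.679. These values describe 9 libraries that share groups and replicate numbers and carry no p-value.

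The genes whose pattern was nearest to a called member were chosen from 11279 candidates by Pearson r over the same 9 libraries. For Fosl1 these were Sec61a1 (r = 0.975), Tnrc18 (0.972) and Stard13 (0.970), and for Jun they were Ahcy (0.973), Slc24a3 (0.969) and Twist1 (0.968). For Jund they were Fars2 (0.963), Hnrnpa0 (0.959) and Cep135 (0.948), and for Atf3 they were Gatc (0.961), Mrpl44 (0.949) and 2610034B18Rik (0.945).

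Genes that act with, upstream or downstream of AP-1 were described in 5 further lists, chosen with earlier results of these data known. Of 21 tested bZIP genes that can pair with AP-1 or bind related sites, 4 rose and 7 fell with p21 (median log2 fold change -0.08), beside 19.8% and 20.1% of all genes. Without control replicate 1 or control replicate 3, 4 fell. The small MAF genes Mafk and Maff, whose products lack an activation domain, rose from 46.3 ± 1.18 to 70.8 ± 2.62 CPM and from 33.6 ± 0.60 to 44.6 ± 1.15 CPM. Ddit3, which encodes the stress factor CHOP, rose by 0.45 ± 0.070 on the log2 scale, and Creb1, which binds the cAMP response element, fell by 0.37 ± 0.059. With p16, 3 rose and 1 fell (median -0.01), beside 5.80% and 5.56% of all genes. The same 4 genes were the ones called: Mafk at 0.31, Maff at 0.23, Ddit3 at 0.30 and Creb1 at -0.23.

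Other immediate early genes went both ways. Of 30, 7 rose and 7 fell with p21 (median -0.03), beside 19.8% and 20.1% of all genes. The counts were 6 and 11 under library totals and 9 and 11 with the replicate block, and 4 fell without p21 replicate 1. Dusp1, a phosphatase that switches off JNK and p38, rose from 72.7 ± 3.25 to 116 ± 7.85 CPM, a log2 fold change of 0.67 ± 0.051. Ier3 rose by 0.47 ± 0.044 on that scale and Ctgf, a secreted matrix protein, by 0.20 ± 0.032, while the zinc finger factor Egr3 fell from 11.9 ± 1.20 to 6.80 ± 0.74 CPM. With p16, 5 of the 30 rose and 1 fell, beside 5.80% and 5.56% of all genes. Without control replicate 1 or p16 replicate 3, 3 rose, and with the block 7 rose and 4 fell. Dusp1 was at 0.33 with p16, Ier3 at 0.22, Ctgf at 0.19 and Egr3 at -0.46.

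Of 28 kinases upstream of AP-1, 6 rose and 6 fell with p21 (5 and 8 with library totals). Over all genes 19.8% rose and 20.1% fell, and the median of the kinases was 0.01. The p38 kinase Mapk14 rose by 0.24 ± 0.037 and the ERK activator Map2k1 by 0.24 ± 0.041 on the log2 scale. Mapk12, another p38 kinase, fell by 0.42 ± 0.079 and Rps6ka4, the histone and CREB kinase MSK2, by 0.25 ± 0.033. With p16, Map2k1 rose (0.14), and Rps6ka4 (-0.13) and Mapk12 (-0.28) fell, beside 5.80% of all genes higher and 5.56% lower. The p16 calls of Map2k1 and Mapk12 were lost whichever single library of the p16 or control group was left out, and with replicates 1 and 2 alone (adjusted p up to 0.150 and 0.137, edgeR). That of Map2k1 was also lost under library totals and with no filter. The p16 calls of Rps6ka4 and Ddit3 were lost on leaving out control replicate 1, control replicate 2, p16 replicate 2 or p16 replicate 3. That of Creb1 was lost on leaving out control replicate 1, control replicate 3, p16 replicate 1 or p16 replicate 2.

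Of 21 regulators of AP-1 transcription, RNA decay and protein, 10 fell and 2 rose with p21 (5 rose with the replicate block), with a median of -0.11. Over all genes 20.1% fell and 19.8% rose with p21. Hnrnpd, which encodes the AU-rich element binding protein AUF1, fell from 138 ± 3.50 to 90.5 ± 3.57 CPM, a log2 fold change of -0.61 ± 0.039. Zfp36l2 and Zfp36l1, which promote the decay of AU-rich transcripts such as Fos, fell by 0.44 ± 0.037 and 0.47 ± 0.050 on that scale, and Elk1, a serum response factor partner at the Fos promoter, rose by 0.31 ± 0.054. With p16, 0 rose and 4 fell, beside 5.80% and 5.56% of all genes. The 4 were Hnrnpd (-0.38), Zfp36l2 (-0.22), Zfp36l1 (-0.22) and Men1 (-0.15), which encodes menin. Men1 lost the p16 call whichever single library of those groups was left out, with no filter and with replicates 1 and 2 alone (adjusted p up to 0.154, edgeR). Zfp36l1 lost it on leaving out control replicate 2, control replicate 3 or p16 replicate 2 (up to 0.0686, edgeR).

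Of 41 genes reported elsewhere as AP-1 targets, 38 were tested, and 22 rose and 2 fell with p21, at a median of 0.36 on the log2 scale. The list was drawn from reported regulation in various tissues, with earlier results of these data known, so its counts are a description only. Many of its genes also answer to other factors. Hmox1, the haem-degrading enzyme, rose from 89.0 ± 2.15 to 191 ± 13.8 CPM, a log2 fold change of 1.10 ± 0.053. Timp1, an inhibitor of matrix metalloproteinases, rose from 461 ± 17.7 to 703 ± 54.0 CPM, and Nqo1, a quinone reductase, from 32.7 ± 1.20 to 46.9 ± 2.13 CPM. Ivl, a structural gene of keratinocytes, rose from 12.3 to 116 counts per library on average, a log2 fold change of 3.26 ± 0.33 at a low level.

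With p16, 8 of the 38 rose and 1 fell, beside 5.80% and 5.56% of all genes, with a median of 0.13. Hmox1 was at 120 ± 6.04 CPM (log2 fold change 0.43 ± 0.053), and Ccnd1, which encodes cyclin D1, and Timp1 rose by 0.38 and 0.30 on the log2 scale. The count with p16 ranged from 4 without p16 replicate 2 to 16 with the replicate block. In p21 against p16, 11 targets were higher with p21 and 0 lower, where 6.15% of all genes were higher. That count was 6 without p21 replicate 1, 7 without p16 replicate 1, 5 without p16 replicate 2, and 18 higher and 2 lower with the replicate block. Hmox1 was among the 11 (log2 fold change 0.67 ± 0.053, adjusted p = 8.0e-06, edgeR). The targets' counts stand beside 19.8% of all genes higher and 20.1% lower with p21, and no test of the list was made.

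**Figure D4:**
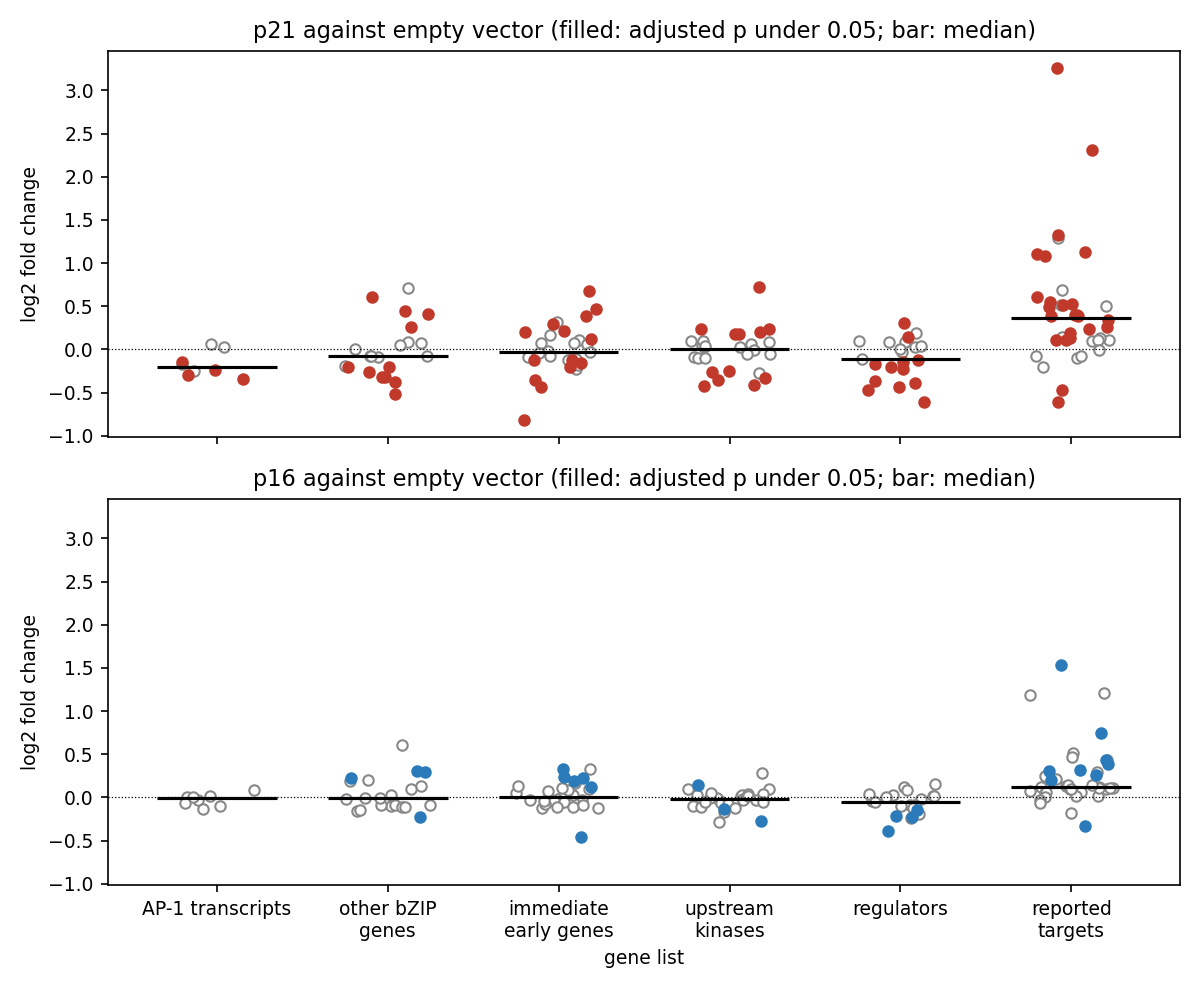
Log2 fold change of every tested gene in the AP-1 members and 5 related lists, with p21 and p16 against the empty vector in separate panels; filled points passed the test (edgeR) and bars are list medians. With p21 the reported targets have a median of 0.36 and the members -0.20.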

How the data were processed

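RNA-seq was measured in 9 MEF libraries, 3 per group, and 1 table of raw read counts per gene symbol was used. Per the submitters' processing notes, the tools were TopHat2 2.0.14, Bowtie2 2.2.6 and featureCounts 1.4.6 of Subread, on mm10, and the deposited counts are whole numbers with no normalization. The gene annotation, strand setting and treatment of overlapping reads are not given in the sources used here. Per the labels, the kit was TruSeq RNA v2, which keeps no strand.

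The counts entered edgeR 4.0.16 in R 4.3.3 (filterByExpr by group, minimum count 10, minimum total 15; TMM; 1 quasi-likelihood fit of all libraries by group, 6 residual degrees of freedom). Two-sided F tests were adjusted by Benjamini-Hochberg over all 14223 genes, and 0.05 was the threshold. The SE of a log2 fold change is its size over the root of its F statistic. The biological coefficient of variation was 7.30%. CPM values use TMM-scaled totals, and correlations use log2 CPM with a prior count of 2. Coordinates, exon lengths and overlaps come from GENCODE M21 (GRCm38, the build of mm10), which matched 22750 of 24062 symbols, and promoters from RefSeq. The fit was also run on simulated counts with the same biological coefficient of variation for every gene and no replicate pairing. That run does not bear on how stable the member calls are.

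The members and lists were chosen with earlier results of these data known. Named genes are all members, the delivered genes, up to 4 called genes with the smallest adjusted p per list in each of p21 and p16 against control, and the 3 genes with a mean log2 CPM of at least 1 most correlated with each called member. Some genes that these rules select are not reported here. Alternatives were other scalings (RLE, library totals), no filter, DESeq2 1.42.0, limma-voom (limma 3.58.1), fits of 2 groups, the replicate block, replicates 1 and 2 alone, and each library left out. Figures used Python 3.11.15, matplotlib 3.10.9 and pandas 2.3.3.

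The labels number the replicates without saying why, so the pairing was checked: after removal of group means, the correlation over genes was 0.126 to 0.361 between same-numbered libraries of different groups and -0.246 to 0.106 between the rest. Every same-numbered pair exceeded 0.1, but so did p21 replicate 2 with p16 replicate 1 (0.106). The highest values, 0.332 to 0.361, were between replicate 3 libraries. Among replicates 1 and 2, same-numbered pairs gave 0.126 to 0.202 and the others 0.0477 to 0.106. The numbers were taken to pair the samples, which is less clear for replicates 1 and 2.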

Additional observations from a re-analysis of the deposited data

How the results depend on the processing

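With p21, RLE scaling, no filter, DESeq2, limma-voom, replicates 1 and 2 alone and the replicate block each called 4 members, library totals 5, and the fit of 2 groups 2; leaving out 1 library gave 0 to 3. With p16 the replicate block called 1 member and leaving out 1 library 0 in every case. In p21 against p16, library totals called 1, the replicate block 3 and leaving out 1 library 0 in every case. Over all genes the block called 3044 with p16 and 3214 in p21 against p16, and 6856 with p21, where leaving out 1 library gave 4617 to 5409, 759 to 1167 with p16 and 1074 to 1782 in p21 against p16. Library totals moved the split over all genes to 2173 higher and 3734 lower with p21 (2816 and 2865 with TMM), 617 and 1235 with p16 (825 and 791) and 735 and 1254 in p21 against p16 (875 and 983), and the median of all genes by -0.05 with p21.

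The sign changed only for log2 fold changes that passed no test. Under library totals Fosl2 was -0.021 with p21, and with p16 Fos was -0.021, Fosl2 -0.026 and Atf3 -0.020. With replicates 1 and 2 alone Fosl2 (-0.016) and Atf3 (-0.011) with p16 and Junb (0.0098) in p21 against p16 turned. Leaving out 1 library gave -0.0070 to 0.062 for Fosl2 with p21. With p16 it gave -0.050 to 0.053 for Fos, -0.075 to 0.024 for Fosb, -0.020 to 0.029 for Fosl2 and -0.030 to 0.084 for Atf3. In p21 against p16 it gave -0.012 to 0.057 for Fosl2, -0.086 to 0.0081 for Jun and -0.042 to 0.0077 for Junb. The cause of these moves was not tested. All 20 named genes of the lists with p21 passed in all 14 alternatives, and 12 of 19 with p16. Apart from Batf3, depth limits Fos, Fosb and Atf3 most, at 189 to 574 counts per library.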
